A study of Mus musculus with 162 samples.

Results

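Toll-like receptors (TLRs) are membrane proteins through which cells of innate immunity, and some cells of other kinds, sense molecules of microbes and of damaged cells. The 10 TLR genes examined here were Tlr1, Tlr2, Tlr3, Tlr4, Tlr5, Tlr6, Tlr7, Tlr8, Tlr9 and Tlr13. They were chosen by gene symbol, and they make up 10 of the 53686 rows of the count table (15167 of these rows are empty in all libraries). Tlr1, Tlr2, Tlr4, Tlr5 and Tlr6 encode receptors of the cell surface, which bind lipoproteins, lipopolysaccharide and flagellin. Tlr3, Tlr7, Tlr8, Tlr9 and Tlr13 encode receptors of the endosome, which bind nucleic acids. All of them but TLR3 signal through the adaptor MYD88, TLR3 signals through TRIF (Ticam1), and TLR4 uses both, and the signal ends in the activation of NF-kB and interferon regulatory factors. In tissues the best known sources of TLR transcripts are macrophages, microglia, dendritic cells, neutrophils and B cells.

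The study sampled 9 organs of 18 adult male C57BL/6J mice, all wild type and without any other treatment, after 0, 2, 8, 12, 18 or 22 h without food (3 mice per time). The 0 h mice fed freely, water was given throughout, and the mice were killed at the same clock time, so that the start of the fast differed between groups. Of the nervous system the olfactory bulb (OB), the cerebellum (CBL), the brainstem (BST, midbrain to medulla) and the forebrain that remains without the bulb (BRN) were taken. The other organs were liver (LIV), stomach (STM), brown fat from between the shoulder blades (iBAT), and white fat of the perigonadal (pgWAT) and the posterior-subcutaneous (psWAT) depot. Each organ therefore came from different mice at each time, and the 9 organs of a time came from the same 3 mice. The study excluded 5 libraries (STM 12 h replicate 3, BRN 8 h replicate 3, BRN 18 h replicate 1, iBAT 22 h replicate 1 and psWAT 22 h replicate 2), and all others were used here. Retained libraries held 3045845 to 27801717 counts (median 8735554).

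Levels are counts of a gene relative to all counts of its library (CPM) with each total scaled by a TMM factor within the organ, given as mean ± SD over mice. CPM per kb of exon is used where genes are compared with each other. Tests are edgeR's quasi-likelihood tests over all genes, with Benjamini-Hochberg adjustment, and a gene is said to be called at an adjusted p under 0.05 with an absolute log2FC over 1.

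Marker genes were checked in each organ. Neuron markers summed to at least 2391 CPM in every BRN library. As a level of the organ, hepatocyte markers summed to 88232 CPM in LIV (83011 CPM in LIV 2 h replicate 2), gastric epithelium markers to 41953 CPM in STM and brown adipocyte markers to 6648 CPM in iBAT. Over 11679 genes every retained library but 1 was most like its own organ. The exception was psWAT 8 h replicate 1, which was nearest to pgWAT and had the highest adipocyte markers (30431 CPM) and the lowest B cell markers (179 CPM) among psWAT libraries. In psWAT 12 h replicate 3 the markers of cerebellar neurons reached 4078 CPM, against a psWAT median of 1.1 CPM. In pgWAT 22 h replicate 2 adipocyte markers (3211 CPM) and macrophage markers (355 CPM) were the lowest of that depot. Family sums, comparisons of groups of organs that include white fat, and the slopes and correlations within psWAT were computed again without these libraries. White fat was extracted with another reagent and kit than the other organs, so that extraction and white fat cannot be told apart in comparisons of white fat with the rest.

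The receptors that are close copies of each other set a limit on these counts. Tlr1 (ENSMUSG00000044827.10, chromosome 5, 64924679 to 64933563, minus strand) and Tlr6 (ENSMUSG00000051498.6, chromosome 5, 64952031 to 64960097, minus strand) are neighbours, and both encode partners that pair with TLR2. They share an identical coding run of 229 bases in the last exon of each gene (GRCm38), at chr5:64925537-64925765 in Tlr1 and at chr5:64953828-64954056 in Tlr6. A read that lies wholly inside this run maps to both genes, and the study kept only uniquely mapped reads. The run is shown as the longest stretch they share (it does not hold all of their shared sequence), and it is the sequence of the minus strand:
Tlr1 and Tlr6, shared run: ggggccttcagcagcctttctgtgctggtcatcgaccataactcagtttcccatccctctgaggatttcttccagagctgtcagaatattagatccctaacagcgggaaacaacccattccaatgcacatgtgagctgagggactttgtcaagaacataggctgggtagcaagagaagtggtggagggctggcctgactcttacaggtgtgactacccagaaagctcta
Of all stretches of 100 bases, 8.85% of those in Tlr1-202 and 7.24% of those in Tlr6-201 occur in the other gene. Levels of Tlr1 and Tlr6 may thus be understated, by an amount that was not measured, and no other pair of members shared a stretch of this length.

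The other members lie apart. Tlr2 (ENSMUSG00000027995.10) is on chromosome 3 (83836272 to 83841767, minus strand), Tlr3 (ENSMUSG00000031639.12) on chromosome 8 (45395665 to 45411080, minus strand), and Tlr4 (ENSMUSG00000039005.13) on chromosome 4 (66827584 to 66930284, plus strand). Tlr5 (ENSMUSG00000079164.8) is on chromosome 1 (182954788 to 182976044, plus strand) and Tlr9 (ENSMUSG00000045322.10) on chromosome 9 (106222598 to 106226883, plus strand). Chromosome X holds Tlr7 (ENSMUSG00000044583.13, 167304929 to 167330558, minus strand), Tlr8 (ENSMUSG00000040522.5, 167242696 to 167264329, minus strand) and Tlr13 (ENSMUSG00000033777.4, 106143204 to 106160493, plus strand). An antisense gene, Gm45542, overlaps Tlr3, and whether the counting used the strand was not stated, so that its reads may be part of the Tlr3 count.

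Promoters (250 bases before to 50 bases after a RefSeq start, GRCm38.p6) were at hand for 8 members, with 10 windows in all. The core GAGGAAG that is bound by PU.1, a factor of myeloid and B cells, was searched on both strands (as GAGGAAG or CTTCCTC). It was found in 3 of the 10 windows, and in 13.6% of 32851 mouse promoters of the same length. The 3 windows are shown, 5′ to 3′ along the gene, with the matches in capitals. Tlr1 had another window, chr5:64932650-64932949, without this match. Across psWAT libraries Tlr1 and Tlr9 rose with the B cell markers and Tlr13 with the macrophage markers (given further on), and a part of the letters in this was not tested. Tlr2 and Tlr6, which also rose with the B cell markers, had no match in their windows, and Tlr7, the fifth member that rose with them, was without a window here:
Tlr1, chr5:64933509-64933808, minus strand: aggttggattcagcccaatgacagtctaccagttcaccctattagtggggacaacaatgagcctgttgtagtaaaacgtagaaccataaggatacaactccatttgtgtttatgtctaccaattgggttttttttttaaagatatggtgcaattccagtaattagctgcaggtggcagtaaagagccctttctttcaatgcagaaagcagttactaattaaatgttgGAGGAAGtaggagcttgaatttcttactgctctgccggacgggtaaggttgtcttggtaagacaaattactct
Tlr9, chr9:106222348-106222647, plus strand: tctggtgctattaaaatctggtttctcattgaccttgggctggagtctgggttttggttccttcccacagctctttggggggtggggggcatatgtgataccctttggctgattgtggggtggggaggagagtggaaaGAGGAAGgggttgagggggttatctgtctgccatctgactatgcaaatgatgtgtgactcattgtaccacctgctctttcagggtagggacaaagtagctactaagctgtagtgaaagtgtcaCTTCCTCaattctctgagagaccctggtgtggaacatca
Tlr13, chrX:106143025-106143324, plus strand: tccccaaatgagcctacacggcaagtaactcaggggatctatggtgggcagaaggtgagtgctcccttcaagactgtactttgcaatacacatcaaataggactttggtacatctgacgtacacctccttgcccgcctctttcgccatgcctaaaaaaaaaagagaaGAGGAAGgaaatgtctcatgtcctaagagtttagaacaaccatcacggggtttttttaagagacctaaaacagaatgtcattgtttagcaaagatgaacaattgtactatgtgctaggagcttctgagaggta
The Ets core CCGGAAG (or CTTCCGG) was in 1 of the 10 windows and in 8.86% of all promoters. The element of interferon regulatory factors (both strands) was in 1 window, of Tlr6, and in 3.44% of all promoters. A match is a description of these letters and not of binding.

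As a family the receptors were highest in white fat. The 10 members summed to 66.1 ± 30.9 CPM per kb in psWAT (n = 17 mice, lowest 16.5, highest 115.8) and to 23.5 ± 5.56 in pgWAT (n = 18), and psWAT overlapped with pgWAT. OB (8.35 ± 1.05), BST (7.83 ± 0.626), STM (6.89 ± 1.49), iBAT (5.93 ± 1.31) and LIV (5.22 ± 2.08 CPM per kb) lay below, and CBL (4.05 ± 0.367) and BRN (3.94 ± 0.643 CPM per kb) were lowest. These levels are scaled within each organ. TMM factors set over all organs averaged 0.623 in LIV, 0.719 in iBAT and 0.862 in STM, against 1.19 in OB and 1.11 in BST. A lower factor raises a level, so that the order among OB, BST, STM, iBAT and LIV depends on scaling. Without the 3 libraries that stood apart the sum was 72.3 ± 27.4 CPM per kb in psWAT (n = 15) and 24.01 ± 5.29 in pgWAT (n = 17), and the depots still overlapped.

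The make-up of the family differed between organs. In the nervous organs Tlr3 had the highest level per kb, with 58.2% of the summed level in BST, 54.3% in CBL, 48.9% in OB and 43.8% in BRN. Tlr7 followed in BRN with 21.7%. In STM the leading member was Tlr4 (32%), followed by Tlr3 (25.4%) and Tlr2 (23.1%). LIV combined Tlr3 (26.8%), Tlr5 (22.9%), Tlr2 (17.1%, raised by the 1 library described with Tlr2) and Tlr1 (13.9%). Tlr3 (30.2%) and Tlr4 (24%) led in iBAT, and Tlr4 (23%) led in pgWAT, where Tlr3 was at 16%. In psWAT Tlr1 alone made 58.8% (59.5% without the libraries that stood apart), and Tlr3 made 5.84%.

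**Figure D1:**
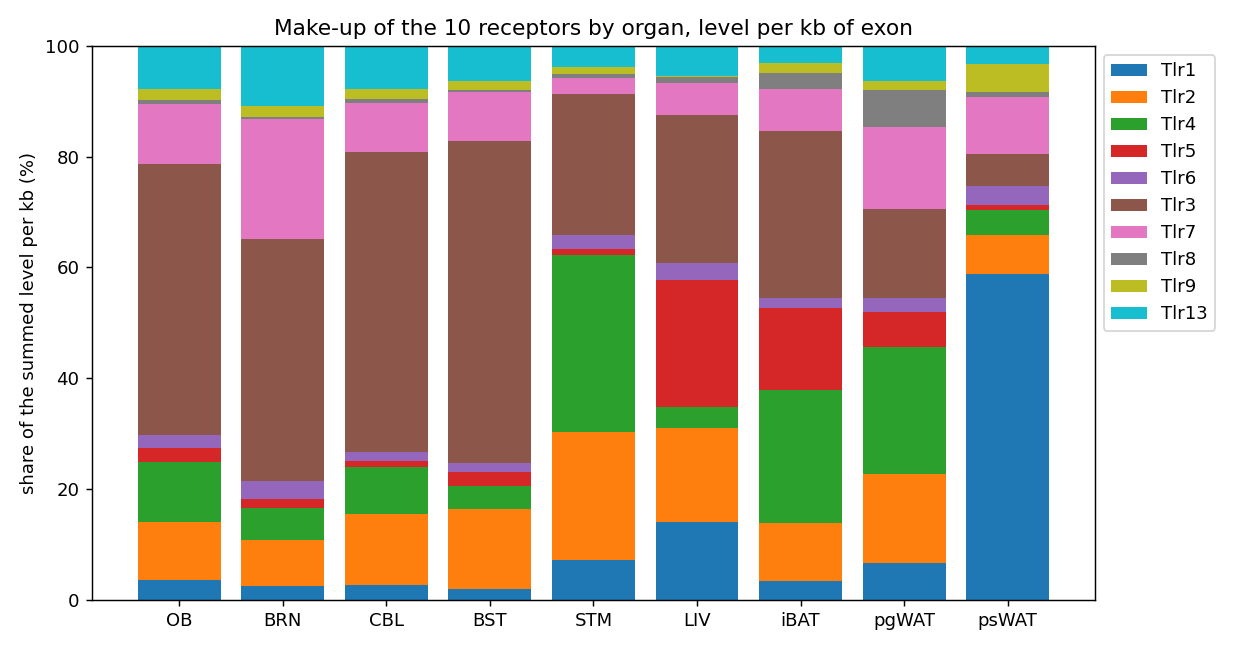
Share of each member in the summed TLR level (mean normalized CPM per kb of exon, percent), stacked for each of the 9 organs. Tlr3 takes 43.8% to 58.2% in the nervous organs, Tlr4 32% in STM and Tlr1 58.8% in psWAT.

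By mean CPM the 5 receptors of the cell surface were each highest in white fat. Tlr1, whose product pairs with TLR2 to bind triacylated lipopeptides, was at 130.1 ± 70.2 CPM in psWAT (n = 17, lowest 22.5, median 122.3, highest 242.2). In pgWAT it was at 5.26 ± 1.69 CPM (2.57 to 8.98), so that the depots did not overlap, and the log2FC of psWAT over pgWAT was 4.35 (SE 0.23, adjusted p = 7.4e-40). LIV (2.43 ± 1.03), STM (1.65 ± 0.981), OB (0.979 ± 0.366) and iBAT (0.672 ± 0.433 CPM) followed, and BST, CBL and BRN were under 0.5 CPM. Of the 8 pairs of neighbours in this order 4 differed at an adjusted p under 0.05, and pgWAT and LIV did not (log2FC 0.32, adjusted p = 0.177).

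Tlr2, the shared partner of TLR1 and TLR6 and a sensor of bacterial lipoproteins, was at 14.0 ± 7.81 CPM in psWAT (3.21 to 30.3) and at 11.3 ± 3.48 CPM in pgWAT (4.09 to 17.1). The depots overlapped almost wholly, with a log2FC of 0.01 (adjusted p = 0.985) for psWAT over pgWAT. STM (4.79 ± 1.23 CPM) lay below pgWAT (log2FC of pgWAT over STM 0.91, adjusted p = 0.000977). BST (3.43 ± 0.725), OB (2.63 ± 0.503), iBAT (1.87 ± 0.981) and CBL (1.57 CPM) came next, with BRN (0.982 ± 0.869 CPM) lowest. In LIV the mean of 2.70 ± 5.21 CPM rested on 1 library: LIV 2 h replicate 2 had 23.4 CPM (281 counts) and the other LIV libraries 0.594 to 3.10 CPM. Without it LIV was at 1.48 ± 0.742 CPM, and in place of a LIV level above OB (log2FC 0.82, adjusted p = 0.0035) the log2FC of OB against LIV was not separable from 0 (adjusted p = 0.667). That library also had the highest sum of neutrophil markers in LIV (26.7 CPM, against a median of 4.4), whose part in its Tlr2 level was not tested.

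Tlr6, the other partner of TLR2, which with it binds diacylated lipopeptides, was at 8.26 ± 4.38 CPM in psWAT (median 8.86, from 0 to 14.0) and at 2.26 ± 0.873 CPM in pgWAT. All other organs were under 0.8 CPM. The log2FC of psWAT over pgWAT was 1.60, and that of pgWAT over OB was 1.69.

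Tlr4, the receptor of lipopolysaccharide, had another order. It was highest in pgWAT at 30.0 ± 8.89 CPM (10.7 to 48.3), followed by psWAT (16.8 ± 6.73, 7.27 to 32.1), STM (12.2 ± 5.11), iBAT (7.91 ± 2.33) and OB (5.04 ± 1.23 CPM). CBL (1.90 ± 0.471), BST (1.80 ± 0.558), BRN (1.25 ± 0.738) and LIV (1.07 ± 0.74 CPM) were lowest. The log2FC of pgWAT over psWAT was 1.11 (SE 0.18, adjusted p = 4.05e-08). In the middle of the order psWAT and STM (adjusted p = 0.598) and STM and iBAT (adjusted p = 0.101) did not pass the test.

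Tlr5, the receptor of flagellin, was the member that stood high in LIV. It was at 7.14 ± 2.80 CPM in pgWAT (3.38 to 13.7), 5.74 ± 2.11 CPM in LIV (2.39 to 9.11), 4.22 ± 1.28 CPM in iBAT and 3.18 ± 2.28 CPM in psWAT (0.632 to 7.87). OB and BST were just under 1 CPM, and STM, BRN and CBL under 0.4 CPM. On the scale of the test between organs, which sets TMM factors over all organs together, pgWAT was 0.49 below LIV on the log2 scale (adjusted p = 0.067), so that the first place was not settled. LIV was above iBAT (log2FC 0.68, adjusted p = 0.0148), and iBAT above psWAT (log2FC 1.29).

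**Figure D2:**
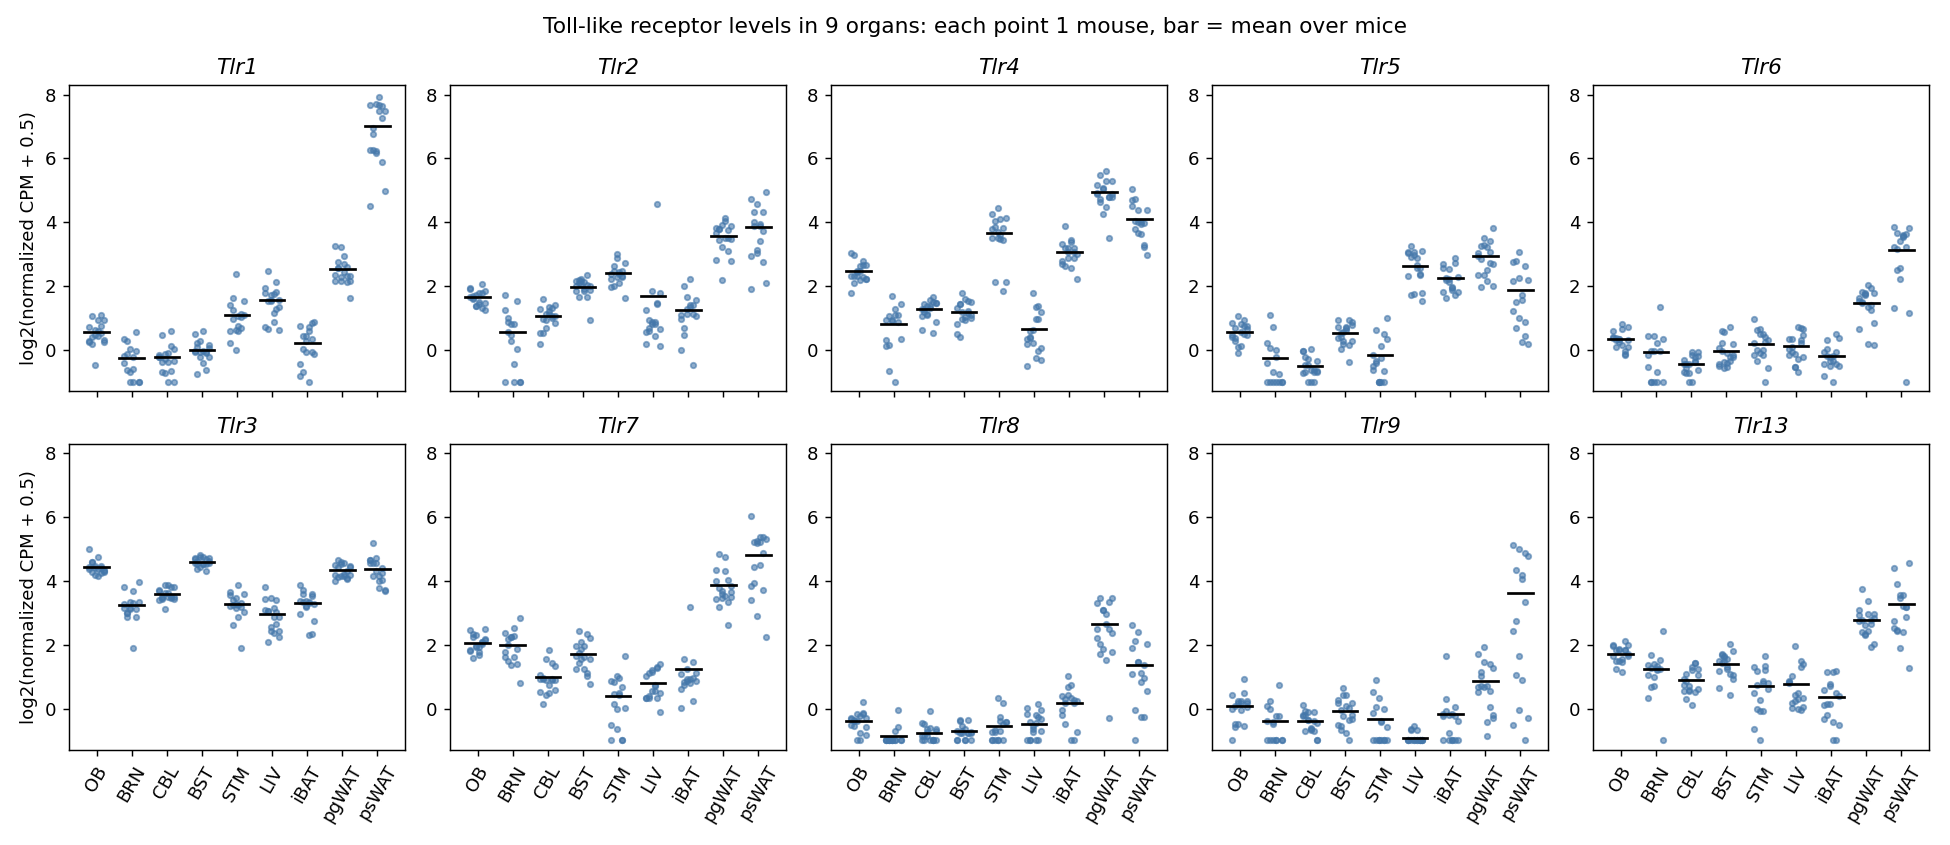
Level of each of the 10 members in the 9 organs, as log2 (normalized CPM + 0.5); each point is 1 mouse and the bar marks the mean CPM. The psWAT points of Tlr1 lie above those of every other organ, and the Tlr3 points of BST and OB lie at the level of white fat.

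Among the endosomal receptors Tlr3, a sensor of double-stranded RNA, was the most even. BST (23.7 ± 2.25 CPM), OB (21.2 ± 3.34), psWAT (20.1 ± 5.94) and pgWAT (19.6 ± 2.88 CPM) lay together, and CBL (11.4 ± 1.60), iBAT (9.32 ± 2.61), STM (9.10 ± 2.52), BRN (8.97 ± 2.81) and LIV (7.27 ± 2.59 CPM) formed a lower group. BST was above OB by a log2FC of 0.27 (adjusted p = 0.0301), OB and psWAT did not pass (adjusted p = 0.0736), and pgWAT was above CBL by 0.97. The order of organs depends on scaling. Among pairs of neighbours that passed the test between organs, its sign was opposite to that of the mean CPM for 3 pairs of Tlr3 and for 1 pair each of Tlr4, Tlr7 and Tlr13. On that scale LIV stood above BRN for Tlr3 and Tlr4, and above CBL for Tlr7 and Tlr13.

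Tlr7, a sensor of single-stranded RNA, was at 27.5 ± 16.1 CPM in psWAT (4.27 to 65.1) and 14.1 ± 5.95 CPM in pgWAT (5.69 to 28.1). OB (3.69 ± 0.762), BRN (3.49 ± 1.38), BST (2.80 ± 1.05) and iBAT (1.83 ± 1.81 CPM) did not pass the test between neighbours, and CBL (1.46), LIV (1.23) and STM (0.815 CPM) were lower. Tlr8, its neighbour on chromosome X, was in contrast highest in pgWAT (5.74 ± 3.08 CPM, median 5.13, 0.316 to 10.6), ahead of psWAT (2.1 ± 1.62 CPM, 0 to 5.60) by a log2FC of 1.78. The lowest pgWAT value, 0.316 CPM, was that of 22 h replicate 2. Outside fat Tlr8 was under 0.3 CPM, and 13 of 16 BRN libraries had no count. A floor of 3 counts equals 0.365 CPM in the shallowest OB library and 0.985 CPM in the shallowest BRN library, so that these low levels were not resolved at this depth.

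Tlr9, the receptor of unmethylated CpG DNA, varied widely between mice. It was at 11.9 ± 12.4 CPM in psWAT, with a median of 6.26 and a range of 0 to 34.7 CPM, and at 1.30 ± 0.90 CPM in pgWAT (0.0549 to 3.29), a log2FC of 2.85. Values in psWAT were 4.87, 1.57 and 31.1 CPM at 0 h, 16.3, 28.7 and 26.9 at 2 h, 0.201, 6.26 and 2.64 at 8 h, 17.6, 9.53 and 0.316 at 12 h, 34.7, 19.9 and 0.476 at 18 h, and 1.35 and 0 at 22 h. High and low mice were thus found at 0 and 18 h alike, and at 12 h the low value was that of replicate 3, which held the markers of cerebellar neurons. In LIV 14 of 18 libraries had no Tlr9 count. Tlr13, which binds bacterial ribosomal RNA, was at 9.15 ± 5.86 CPM in psWAT (1.90 to 23.3) and 6.4 ± 2.33 CPM in pgWAT (3.27 to 13.0), which did not pass the test (log2FC 0.18 for psWAT over pgWAT, adjusted p = 0.479). OB (2.80), BST (2.14) and BRN (1.85 CPM) followed, with no pair of neighbours among them past the test, and iBAT was lowest (0.77 CPM).

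Nervous organs were then compared with the other 5 organs together, each organ weighted equally. Of the 10 members 6 were called lower in the nervous organs, which compares with 26% of all 21601 genes. They were Tlr1 (log2FC -3.56, SE 0.14, adjusted p = 3.42e-56), Tlr5 (-2.85), Tlr4 (-2.41), Tlr6 (-1.82), Tlr2 (-1.75) and Tlr8. Tlr7 (-0.82, adjusted p = 5.51e-11) and Tlr13 (-0.57, adjusted p = 6.78e-06) were lower by less than the fold threshold. Tlr3 did not pass (-0.05, SE 0.06, adjusted p = 0.365). The median log2FC was -1.79 over the members and -0.11 over all genes. Among the nervous organs Tlr1 passed the filter on low counts only in OB, Tlr5 and Tlr6 only in OB and BST, and Tlr8 and Tlr9 in none, so that no fold is given for these 2. These 5 members entered the fit also or only through the organs in which they were high, so that their lower levels here are a description and neither the count of 6 nor the median supports anything further. Without the 3 white fat libraries that stood apart the count was 7, with Tlr9 added. The levels are those of whole organs, and in such samples fewer cells of a type and less RNA per cell cannot be told apart.

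Most genes that serve the receptors were lower in the nervous organs as well, in a comparison in which 43.8% of all genes were lower at an adjusted p under 0.05. Of the co-receptors 5 of 6 were lower, among them Ly96 (log2FC -2.78, SE 0.13), the protein that holds lipopolysaccharide on TLR4, and Cd14 (-2.47), which hands it over. Unc93b1, the chaperone that carries nucleic acid receptors to the endosome, was at -2.67 (SE 0.07), and 6 of 9 trafficking genes were lower and 2 higher. Among the adaptors Myd88 (-2.67), Tirap (-2.42), Ticam1 (-1.84) and Ticam2 (-1.26) were lower and Sarm1, which is an enzyme of axon degeneration in neurons, was higher (5.25). All 7 transcription factors were lower, led in size by Irf7 (-3.95) and Nfkb2 (-3.42), and so were 8 of 8 cytokine genes tested, of which 2 passed the filter in OB and none in the other nervous organs, so that the count for cytokine genes is a description. Microglia markers were higher in 6 of 6 and macrophage markers lower in 7 and higher in 1 of 11.

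Each nervous organ was compared with the mean of the other 3. Tlr4 (log2FC 1.59), Tlr1, Tlr5 and Tlr8 were called higher in OB, 4 of 10 members against 9.64% of all genes, and 9 of 10 were higher by adjusted p alone (30.7% of all genes), the exception being Tlr9. OB was not above each of them, since BST had more Tlr2 and Tlr3 by mean CPM (given above). BST was called higher for Tlr2 (1.19) and Tlr5, 2 of 10 against 10.9%. In CBL Tlr7 (-1.29), Tlr5 and Tlr6 were called lower, 3 of 10 against 12.4%. In BRN Tlr2 (-1.15, adjusted p = 9.07e-05) and Tlr8 were called lower, 2 of 10 against 8.48%. Tlr8 passed the filter in none of these 4 organs (62 counts over all OB libraries and 5 to 18 in the others), Tlr1 passed only in OB, and Tlr5 and Tlr6 only in OB and BST, so that no fold is given for them and these counts are descriptions. The summed microglia markers had the order OB (374.8 CPM), BRN (191.5), BST (176.4) and CBL (101.9 CPM), and macrophage markers were higher in OB in 9 of 11 and in BRN in 8 of 11. Neutrophil markers were higher in OB in 5 of 5 tested (median log2FC 2.06). Their part in these differences was not tested.

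LIV was compared with STM, iBAT and the white depots. Of the members 1, Tlr5, was called higher in LIV (log2FC 1.87, SE 0.19, adjusted p = 5.17e-17), against 16.5% of all genes, and 4 were called lower, Tlr4 (-3.17, SE 0.19), Tlr7 (-1.31), Tlr8 and Tlr9, against 31% of all genes. Tlr8 and Tlr9 did not pass the filter in LIV (35 and 5 counts over all LIV libraries) and entered the fit through fat depots, so that no fold is given for them and the count of 4 is a description. The 5 calls were made again without the 3 white fat libraries that stood apart (Tlr5 1.84, Tlr4 -3.19, Tlr7 -1.36). With library totals alone Tlr1, Tlr2, Tlr6 and Tlr13 were called as well (given at the end). Tlr2 was at -0.66 (adjusted p = 0.00458), and at -1.39 without LIV 2 h replicate 2. Cd14, the co-receptor of TLR4, was lower in LIV too (-2.01), while Lbp, the secreted lipopolysaccharide binding protein made by hepatocytes, was higher (3.19). Markers of Kupffer cells, the macrophages of the liver, were higher in 5 of 5 (30.9% of all genes), at 181 CPM in sum (116.5 to 304.9), and macrophage markers were higher in 5 and lower in 3 of 11.

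In STM, against the other 4 organs outside the nervous system, 6 of 10 members were called lower (15.8% of all genes), namely Tlr7 (-2.65), Tlr1 (-1.79), Tlr13 (-1.21), Tlr5, Tlr6 and Tlr8. The last 3 did not pass the filter in STM and entered through organs in which they were high, so that the count is a description and nothing is read from it. Without the 3 white fat libraries that stood apart it was 7, with Tlr9, which did not pass the filter in STM either. Tlr4 was higher by 0.62 on the log2 scale (adjusted p = 5.86e-05), and Tlr2 did not pass (-0.05, adjusted p = 0.88). The macrophage markers were lower in STM in 11 of 11 (35.5% of all genes), and Cd14 (-1.33) and Unc93b1 (-2.08) were lower.

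Brown fat had lower levels of most members than white fat. Against the mean of pgWAT and psWAT 7 of 10 members were called lower in iBAT (29.2% of all genes), namely Tlr1 (-4.53), Tlr7 (-2.79), Tlr13 (-2.54), Tlr2 (-2.06), Tlr8 (-1.67), Tlr6 and Tlr9. Tlr6 and Tlr9 did not pass the filter in iBAT and entered through white fat, so that the count is a description. The 7 calls were made again without the 3 libraries that stood apart (Tlr1 -4.59, Tlr7 -2.88, Tlr13 -2.60, Tlr2 -2.14, Tlr8 -1.68). Tlr4 (-0.78) and Tlr3 (-0.37) were lower by less, and Tlr5 was higher (0.55, adjusted p = 0.0204). Beside them the co-receptor Ly86 (-3.88), the chaperone Unc93b1 (-2.28) and 8 of 8 cytokine genes were lower (44.3% of all genes), although 1 of the cytokine genes passed the filter in iBAT and their count is a description, and macrophage markers were lower in 11 of 11, at 97.7 CPM in sum against 1040 in pgWAT and 1328 CPM in psWAT.

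All 10 members passed the filter in both white depots, and 6 differed between them by the call rule. Called higher in pgWAT were 3 of 10 members, Tlr8 (log2FC 1.78, SE 0.33), Tlr5 (1.47, SE 0.27) and Tlr4 (1.11, SE 0.18), against 19.8% of all genes. Called higher in psWAT were Tlr1 (log2FC of pgWAT over psWAT -4.35, SE 0.23), Tlr9 (-2.85, SE 0.43) and Tlr6 (-1.60, SE 0.27), again 3 of 10, against 24.2% of all genes. Both counts lie near the shares of all genes and are a description. Tlr7 was lower in pgWAT by less (-0.66, adjusted p = 0.00362) and Tlr3 was at 0.24 (adjusted p = 0.0495), while Tlr2 (-0.01) and Tlr13 (-0.18) did not pass. When the 3 libraries that stood apart were left out, all 6 calls were made again (Tlr1 -4.46, Tlr9 -2.98, Tlr6 -1.70, Tlr8 1.90, Tlr5 1.32, Tlr4 1.21), Tlr1 in psWAT was at 143.9 ± 62.4 CPM, and Tlr3 no longer passed (adjusted p = 0.0594). The call of Tlr4 was lost with library totals alone (log2FC 0.83) and without replicate 3 (0.98), by the fold threshold.

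Markers of B and T cells were higher in psWAT, as were Tlr1, Tlr6 and Tlr9, whereas Tlr4, Tlr5 and Tlr8 were higher in pgWAT. The B cell markers summed to 1972 ± 1085 CPM in psWAT (179 to 3588) and to 13.6 CPM in pgWAT (4.95 to 22.9), and the T cell markers to 956 CPM (226 to 1541) and 8.53 CPM (6.06 to 11.6). All 6 markers of each list were lower in pgWAT, as were 39% of all genes, while 35.9% were higher. Dendritic cell markers were lower in pgWAT in 6 of 6, neutrophil markers in 4 of 5 tested and skeletal muscle markers in 5 of 5, adipocyte markers were higher in 5 of 5, and macrophage markers higher in 8 and lower in 2 of 11. Their part in the differences of the members was not tested. Transcription factors downstream of the receptors were lower in pgWAT in 7 of 7, of which 5 were called, among them Rel (-3.60) and Nfkb2 (-2.45), and so was Unc93b1 (-1.60, SE 0.13). Among co-receptors Lbp (3.57), Cd36 (2.69) and Cd14 (1.35) were higher in pgWAT, and Cd180 (-2.73) and Ly86 (-1.53), a pair that acts on B cells, were lower.

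Within psWAT the mice differed widely. Tlr1 was at 76.8, 77 and 209 CPM at 0 h, 204, 152.1 and 177 at 2 h, 22.5, 109.2 and 75.3 at 8 h, 178, 201 and 30.7 at 12 h, 203, 122.3 and 72.0 at 18 h, and 242 and 58.7 CPM at 22 h. Low and high mice were found side by side at 0, 18 and 22 h, and at 12 h the low value was that of replicate 3, which held the markers of cerebellar neurons. The level of each gene was fitted on the mean log2 level of the B cell markers and that of the macrophage markers of the same library, a test added after the data were seen. In this fit 5 of 10 members rose with the B cell score, against 18.2% of all genes rising. Slopes were 1.56 log2 units per unit of score for Tlr9 (SE 0.38, adjusted p = 0.00529), 0.70 for Tlr1 (SE 0.063, adjusted p = 5.46e-07), 0.63 for Tlr6 (SE 0.18, adjusted p = 0.012), 0.50 for Tlr2 (SE 0.084, adjusted p = 0.000337) and 0.40 for Tlr7 (SE 0.098, adjusted p = 0.00477). Tlr3 (-0.04), Tlr4 (-0.13, adjusted p = 0.323), Tlr5 (0.16), Tlr8 (-0.41, adjusted p = 0.152) and Tlr13 (0.15, adjusted p = 0.247) did not pass. Without the 2 libraries farthest from the median score, 12 h replicate 3 and 8 h replicate 1, the slopes of Tlr1 (0.85), Tlr2 (0.54), Tlr6 (0.86) and Tlr9 (1.83) still passed, and Tlr7 did not (0.43, adjusted p = 0.0552). With the B cell score in the model, the slope on the macrophage score passed for Tlr13 (1.75, SE 0.32, adjusted p = 0.0403), against 0.138% of all genes. Tlr7 (1.38, unadjusted p = 0.000616) and Tlr2 (0.81, unadjusted p = 0.00485) did not pass on it (adjusted p = 0.172 and 0.39), and no test compared the 2 slopes of a member. The 2 scores had a correlation of 0.473 with each other over the 17 libraries.

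**Figure D3:**
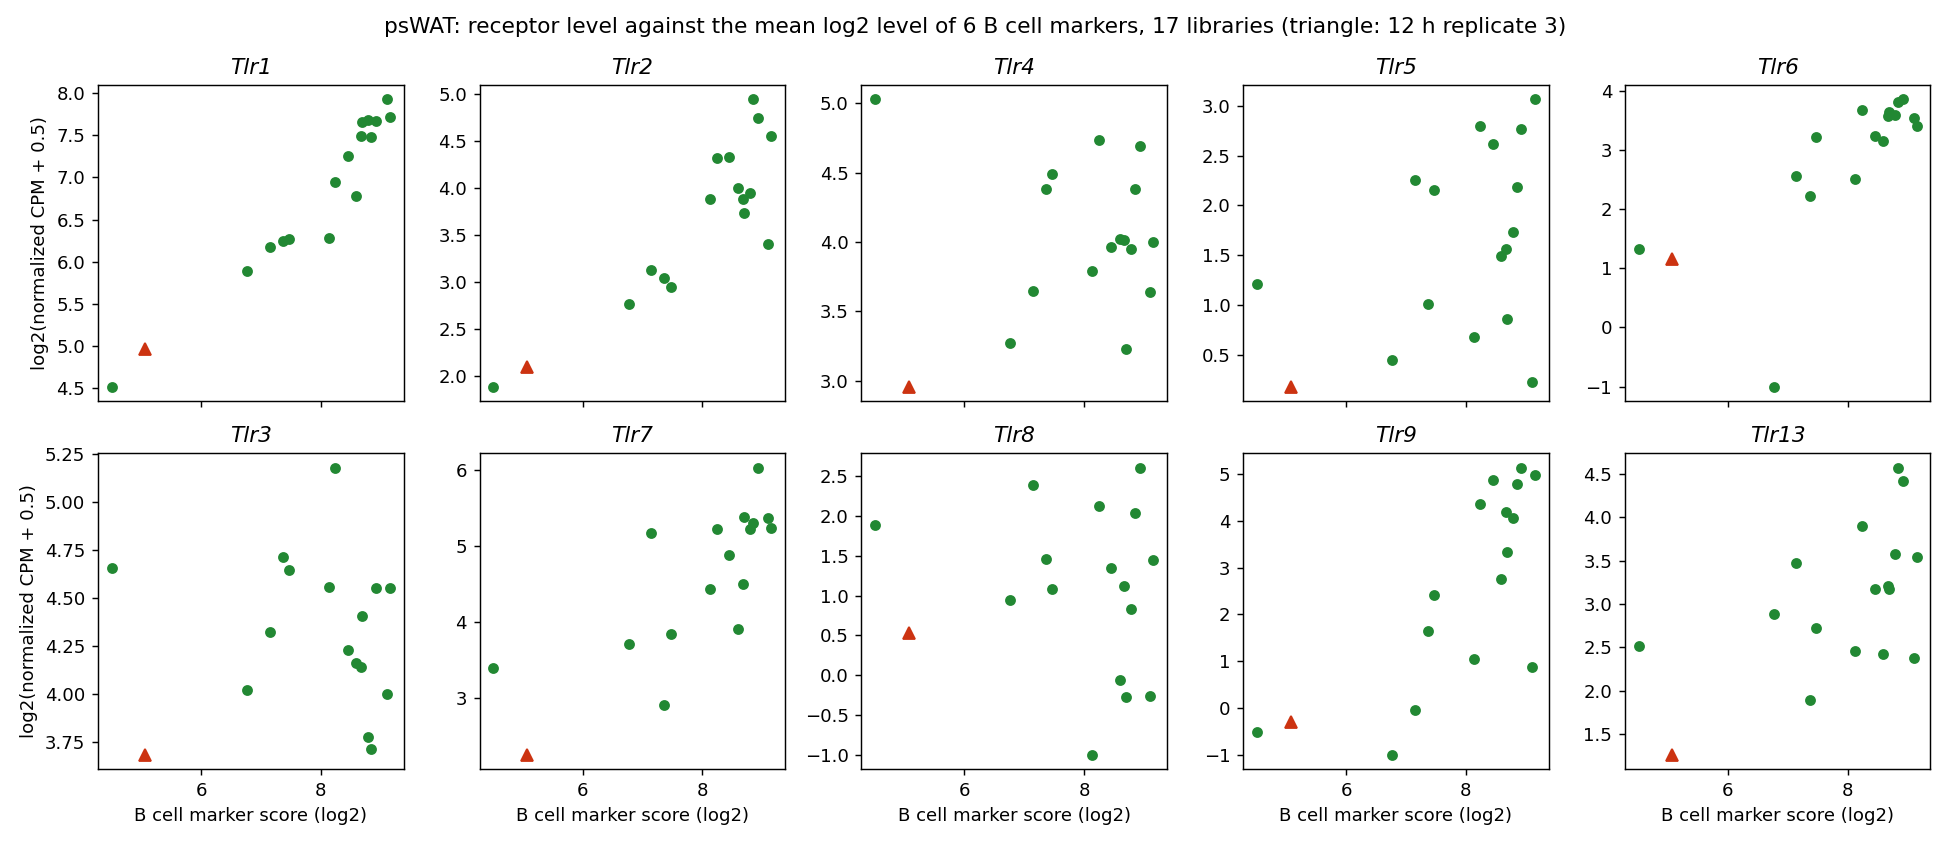
Level of each member in the 17 psWAT libraries (log2 of normalized CPM + 0.5) against the B cell marker score of the same library (mean log2 level of the B cell markers); the triangle is 12 h replicate 3. Tlr1, Tlr2, Tlr6, Tlr7 and Tlr9 are higher at a high score, with fitted slopes of 0.40 to 1.56, and Tlr4 and Tlr8 have slopes of -0.13 and -0.41.

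Pairs of members in psWAT, described over the same 17 libraries, gave the highest correlations for Tlr2 and Tlr9 (r = 0.877), Tlr1 and Tlr2 (0.836), Tlr7 and Tlr13 (0.832) and Tlr1 and Tlr7 (0.813). Tlr1 and Tlr6, which share sequence, had 0.756. Tlr1 had r = -0.10 with Tlr3 and -0.01 with Tlr4. Without the 2 psWAT libraries that stood apart (n = 15) these values were 0.847 for Tlr2 and Tlr9, 0.749 for Tlr7 and Tlr13, 0.729 for Tlr1 and Tlr7, 0.713 for Tlr1 and Tlr6, 0.658 for Tlr1 and Tlr2, -0.29 for Tlr1 and Tlr3, and 0.07 for Tlr1 and Tlr4. These libraries share their depot and its mix of cells, and no test was made.

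Fasting was addressed by comparing late (18 and 22 h) with early (0 and 2 h) mice within each organ, and each time with 0 h. In the late against early comparison members changed at an adjusted p under 0.05 in 3 of the 9 organs, STM, LIV and iBAT. In OB, BRN, CBL, BST, pgWAT and psWAT none did in that comparison by edgeR, where 4.87%, 7.43%, 2.48%, 0.0775%, 0.00609% and 0% of all genes passed. Under other settings of edgeR Tlr4 passed in OB (given below), and Tlr13 passed in BRN without replicate 3 (adjusted p = 0.037), which left 18 h with 1 BRN library at 0 counts. In psWAT 1142 genes and in pgWAT 3315 genes had an unadjusted p under 0.05. Without pgWAT 22 h replicate 2 that comparison passed for 7 genes, none of them a member, and without psWAT 8 h replicate 1 for 0 genes in psWAT. Nothing says that mice of a group were kept apart, and the p-values measure the spread between 3 mice per time.

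**Figure D4:**
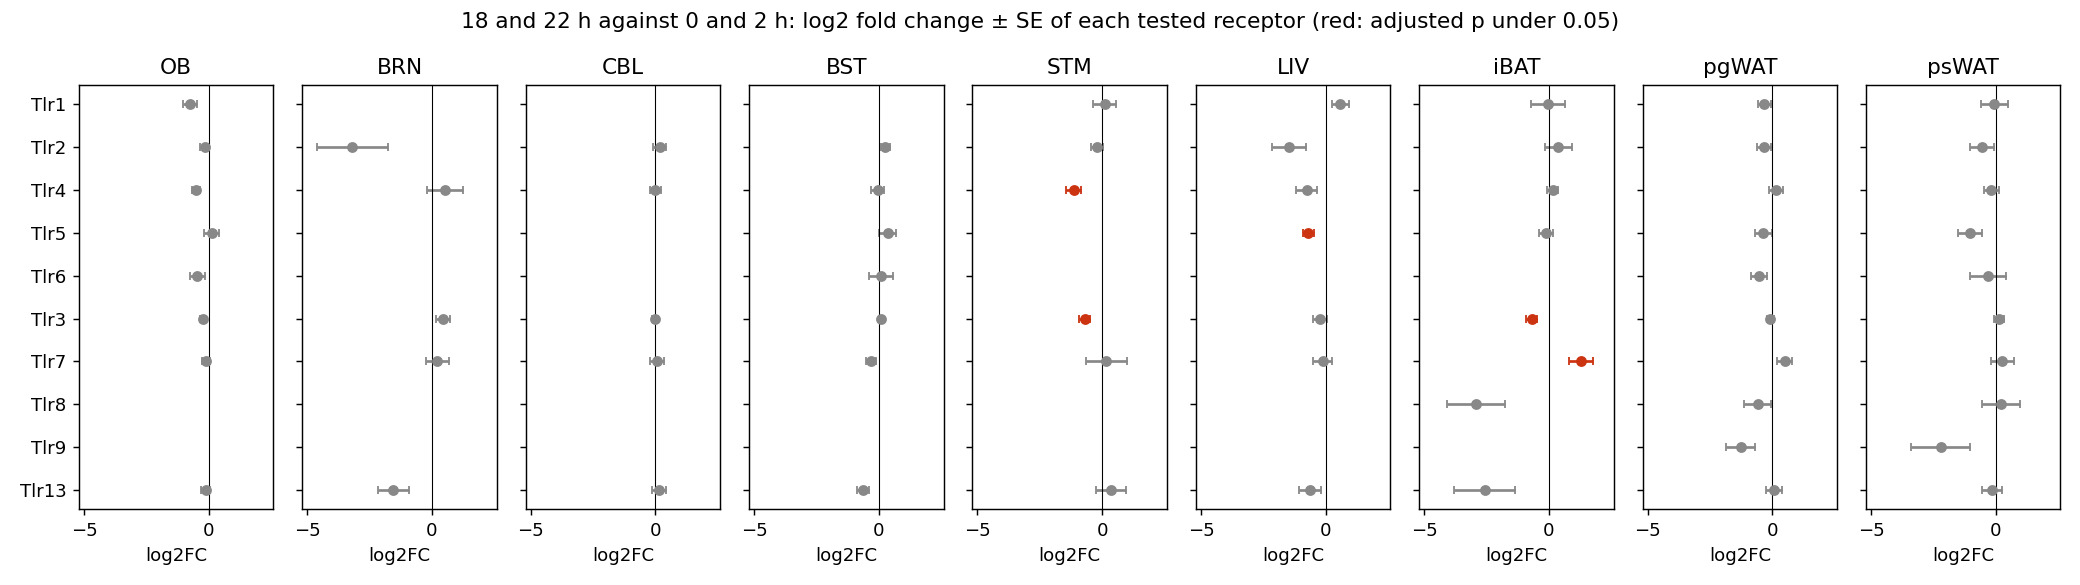
Change of each member in late (18 and 22 h) against early (0 and 2 h) mice, as log2FC ± SE, for the organs in which it was tested; red marks an adjusted p under 0.05. Tlr3 and Tlr4 in STM, Tlr5 in LIV and Tlr3 in iBAT lie below 0, and Tlr7 in iBAT above.

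In STM 2 of 6 members tested fell at an adjusted p under 0.05, where 12% of all genes fell and 22.7% passed in either direction, and 1 of them was called (3.39% of all genes called lower). Tlr4 was at 13.2, 14.0 and 21.2 CPM at 0 h, 16.6, 13.6 and 17.1 at 2 h, 18.6, 16.0 and 12.4 at 8 h, 10.6 and 10.3 at 12 h, 3.86, 10.8 and 3.87 at 18 h, and 10.9, 11.7 and 3.06 CPM at 22 h. All 6 late mice lay below all 6 early mice, 7.37 ± 4.15 against 16.0 ± 3.03 CPM. The log2FC was -1.13 (SE 0.30, adjusted p = 0.0139), and at 18 h against 0 h it was -1.39 (SE 0.43, adjusted p = 0.0404, 4.77% of all genes called lower). Tlr3 was at 12.0, 8.87 and 10.6 CPM at 0 h, 14.0, 9.38 and 11.5 at 2 h, 7.60, 8.70 and 5.62 at 18 h, and 9.11, 6.83 and 3.19 CPM at 22 h, and 5 of 6 late mice lay below every early mouse. Its log2FC was -0.69 (SE 0.22, adjusted p = 0.0338). Left out 1 at a time, no STM library ended the late result of Tlr4 (adjusted p at most 0.0405), though without 22 h replicate 3 the log2FC was -0.93. Leaving out all libraries of replicate number 1 or of number 3 ended it (given at the end). The 18 h result of Tlr4 was lost without 0 h replicate 1 or 3, 18 h replicate 1 or 3 or any 2 h library (adjusted p 0.051 to 0.159). That of Tlr3 was lost without 0 h replicate 1, 2 h replicate 1 or 3, 18 h replicate 1 or 3 or 22 h replicate 3 (adjusted p 0.0594 to 0.0911).

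These STM calls share their contrast with the sequencing lane. All 0 and 2 h libraries of STM were on lane 5 and all 18 and 22 h libraries on lane 6, and the 8 h mice were split between them. With lane as a covariate Tlr4 was at -0.66 (adjusted p = 0.958) and Tlr3 at -0.35 (adjusted p = 0.977), so that fasting and lane cannot be told apart here. Other genes moved with the same contrast: gastric epithelium markers were lower in 3 of 5 (29493 to 105026 CPM early, 11236 to 51759 late), adipocyte markers lower in 3 of 5 (63.4 to 218 CPM early, 76.6 to 101.2 late, median log2FC -2.68 over the list), neuron markers higher in 4 of 4 tested (20.6 to 44.9 CPM early, 53.5 to 83.9 late), skeletal muscle markers passed in 0 of 5, though their sums did not overlap (246 to 1749 CPM early, 1976 to 3771 late), and macrophage markers higher in 1 of 11 (76.2 to 133.02 CPM early, 110.6 to 158.1 late). Hepatocyte markers were lower in 1 of 5, and brown adipocyte markers higher in 1 of 2 tested. Of all genes 12% were lower and 10.7% higher. Their part in the change of Tlr4 was not tested. Of the TLR pathway Hsp90b1, a chaperone of the receptors, fell (-1.05, SE 0.16, adjusted p = 0.000679), as did Tnfaip3 (-1.02), which ends NF-kB signalling. None of 4 adaptors, 13 kinases and ligases or 2 cytokine genes tested passed.

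In LIV 1 of 7 members tested fell, where 7.2% of all genes fell and 15% passed in either direction. Tlr5 was at 7.70, 6.96 and 7.88 CPM at 0 h, 6.86, 4.74 and 2.95 at 2 h, 7.90, 9.11 and 7.41 at 8 h, 5.83, 5.45 and 8.02 at 12 h, 4.43, 2.78 and 2.86 at 18 h, and 5.39, 4.60 and 2.39 CPM at 22 h. Late mice were low, but the 2 h mice overlapped with them, and 3 of 6 late mice lay below every early mouse. The log2FC was -0.69 (SE 0.22, adjusted p = 0.0363). At 18 h against 0 h Tlr5 was called (-1.15, SE 0.31, adjusted p = 0.0221), against 0.963% of all genes called lower, and the joint test over all times passed as well (adjusted p = 0.0245, 16% of all genes). The LIV libraries of 0 and 2 h were on lane 1 and those of 12, 18 and 22 h on lane 2, and with lane as a covariate the late change was -0.49 (adjusted p = 0.652). Left out 1 at a time, the late result held only without 2 h replicate 3, 18 h replicate 1 or 22 h replicate 1, and was lost without any of the other 9 early and late libraries (adjusted p 0.0536 to 0.0974). The 18 h result was lost without 0 h replicate 1 or 3 or 18 h replicate 2 or 3 (adjusted p 0.0545 to 0.0726). Kupffer cell markers passed in 0 of 5 and macrophage markers in 0 of 11 in this comparison. Of the other lists 1 of 6 B cell markers was higher (3.33 to 10.6 CPM in sum early, 7.75 to 18.95 late), 1 of 5 hepatocyte markers was higher and 1 of 2 brown adipocyte markers tested was lower, and their part was not tested. Tlr2 passed the joint test in LIV (adjusted p = 0.0482) only with LIV 2 h replicate 2, and without it had an adjusted p of 0.903.

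In iBAT 2 of 8 members tested passed, against 36% of all genes. Tlr3 was at 14.1, 12.7 and 8.82 CPM at 0 h, 9.62, 11.0 and 9.21 at 2 h, 9.88, 11.6 and 8.47 at 18 h, and 4.45 and 4.56 CPM in both mice of 22 h. Both 22 h mice lay far below the early range, and of the 18 h mice 1 lay just below it (8.47 against 8.82 CPM). The late change was -0.70 (SE 0.20, adjusted p = 0.0143) and that at 22 h against 0 h was -1.40 (SE 0.32, adjusted p = 0.00294), where 41% of all genes passed and 29.7% were called. The joint test passed too (adjusted p = 0.0489, 29% of all genes). The 2 libraries of 22 h were on lanes 1 and 3, which no other retained iBAT library shared, so that 22 h and lane cannot be told apart. With all libraries, the excluded one of 22 h among them, the late change was -0.30 (adjusted p = 0.415).

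Tlr7 in iBAT was at 0.508, 1.18 and 1.32 CPM at 0 h, 1.39, 1.42 and 1.34 at 2 h, 1.60, 2.43 and 1.86 at 18 h, and 8.59 and 0.667 CPM at 22 h. The late change of 1.29 (SE 0.47, adjusted p = 0.0407) and that of 2.08 at 22 h against 0 h (SE 0.70, adjusted p = 0.0251) rested on 22 h replicate 2, with 27 counts. Without that library they were -0.04 (adjusted p = 0.947) and -0.56. The late result was also lost without 0 h replicate 1 or 2, any 2 h library or 18 h replicate 2 or 3 (adjusted p 0.0593 to 0.0855), and the 22 h result without 0 h replicate 1 (adjusted p = 0.0805). The same library had T cell markers of 25.1 CPM against 2.34 CPM in 22 h replicate 3, and macrophage markers of 153.98 against 112.9 CPM. By the leading digits of its name it was the only retained iBAT library of its series, and what these digits mean was not stated. Tlr8 had no count in both 22 h mice and 5, 3 and 15 counts at 0 h. With floors of 0.951 and 0.339 CPM for 3 counts in the 22 h libraries no fold is given, although the test passed (adjusted p = 0.0296).

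Around the receptors in iBAT 6 of 13 kinases and ligases were lower in late mice, with Traf3, a ligase of the interferon branch, called (-1.57, SE 0.26, adjusted p = 0.00116), and Rel, a subunit of NF-kB, was lower too (-1.11). Cd14 was higher (1.19, SE 0.23, adjusted p = 0.00178). Endothelial markers were lower in 4 of 4 (454 to 962 CPM early, 177 to 476 late), and macrophage markers higher in 3 and lower in 1 of 11 (38.1 to 109.98 CPM early, 100.1 to 153.98 late). Adipocyte markers were higher in 3 of 5 (9698 to 13448 CPM early, 12139 to 23163 late), with 20414 and 23163 CPM in the 22 h mice, whose Tlr3 was lowest. Of all genes 19.4% were lower and 16.6% higher. Their part in these changes was not tested.

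In OB Tlr4 missed the threshold in the late comparison (-0.50, SE 0.15, adjusted p = 0.0511). It passed with no filter on low counts (adjusted p = 0.0267), with a replicate block (0.0493) and by DESeq2 (0.033). It was at 7.71, 7.38 and 4.48 CPM at 0 h, 2.96, 3.81 and 4.99 at 18 h, and 4.06, 4.35 and 4.17 CPM at 22 h. At 18 h against 0 h it passed, with 1 of the 3 mice of 18 h above the lowest mouse of 0 h (-0.75, SE 0.21, adjusted p = 0.0265, 12% of all genes). The result was lost without 0 h replicate 1 (adjusted p = 0.135), 0 h replicate 2 (0.075) or 18 h replicate 1 (0.18). Endothelial markers were lower in late OB in 3 of 4 (33.3 to 47.1 CPM early, 21.2 to 31.2 late, 2.54% of all genes lower), and their part was not tested. The 0 h libraries of OB were on lane 3 and the 18 h libraries on lane 4, and with lane as a covariate Tlr4 was at -0.89 (adjusted p = 0.255), so that fasting and lane cannot be told apart here either. Over all organs and times 5 comparisons of a member with 0 h were called of 330 made, against 1.16% of all genes pooled over the same comparisons. They were Tlr4 in STM and Tlr5 in LIV at 18 h, and Tlr3, Tlr7 and Tlr8 in iBAT at 22 h, the last against no count at 22 h.

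**Figure D5:**
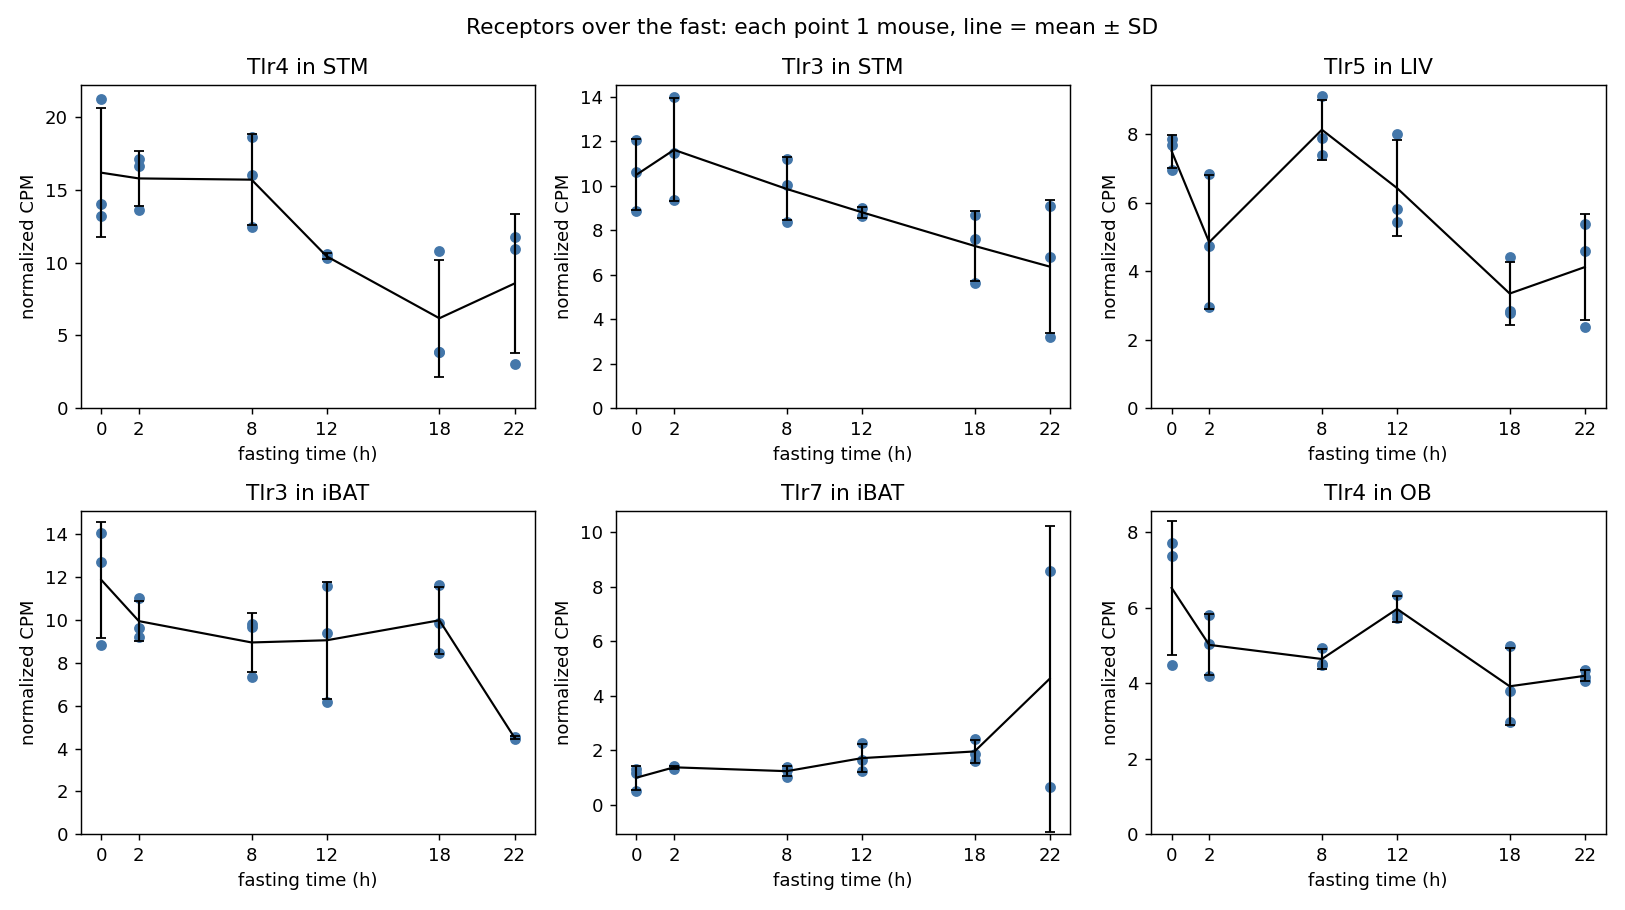
Normalized CPM (mean ± SD, points are mice) against fasting time in hours for 6 pairs of a member and an organ, those of STM, LIV, iBAT and OB described in the text. Tlr4 and Tlr3 in STM are lower at 18 and 22 h, Tlr5 in LIV is lowest at 18 and 22 h, Tlr3 in iBAT drops at 22 h to 4.45 and 4.56 CPM, and the high Tlr7 value in iBAT at 22 h is 1 mouse.

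Whether the response to fasting differed between organs was tested with an interaction of organ and stage (0 and 2 h, 8 and 12 h, 18 and 22 h). It passed for Tlr2 (adjusted p = 0.0311) and Tlr4 (adjusted p = 0.0367), 2 of 10 members, against 23.5% of all genes, and not for Tlr3 (0.0749), Tlr5 (0.139) or the other members (0.357 or more). For Tlr4 the late changes ran from -1.13 in STM, -0.76 in LIV and -0.50 in OB through 0.00 in CBL to 0.53 in BRN. The Tlr2 interaction was lost without LIV 2 h replicate 2 (adjusted p = 0.521), and the Tlr4 interaction was kept (0.0469). With all libraries, the excluded ones among them, neither passed (0.0525 for Tlr2 and 0.0936 for Tlr4). The organs of a time came from the same mice. The labels give only replicate numbers, and libraries of a time with the same number were assumed to come from the same animal. With this assumed animal as a block Tlr4 passed (0.0205), Tlr2 did not (0.0968) and Tlr3 did (0.0361).

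The genes whose pattern was most like that of each member over the retained libraries were found by Pearson correlation of log2 (normalized CPM + 0.5) among 21600 genes, as a description in which the 9 organs set most of the variation. They were Rac2, Clec2i and Ly9 for Tlr1 (Rac2 r = 0.96, and 0.54 within organs), Fam111a, Zfp984 and Cd55 for Tlr2 (0.82), Rassf4, Slx4ip and Tax1bp1 for Tlr3 (0.82, and 0.04 within organs), Ifngr1, Col5a2 and Srpx for Tlr4 (0.92, and 0.56 within organs) and Cd1d1, Scarb1 and Slco2b1 for Tlr5 (0.88, and -0.13 within organs). Those for Tlr6 were Was, Arhgap30 and Dock2 (0.88), for Tlr7 Ncf1, Cd84 and Nrros (0.89), for Tlr8 Clec4b1, Dpep2 and Col6a6 (0.89), for Tlr9 Trbj1-5, Igkj2 and Igkv10-96 (0.87, and 0.79 within organs), and for Tlr13 Nckap1l, Cd33 and Ly86 (0.85). The r given is that of the first gene of each set.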

How the data were processed

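Each library was made from 1 organ of 1 mouse with a stranded, poly(A)-selecting mRNA kit. The authors aligned paired reads to GRCm38.p5 with TopHat2, kept uniquely mapped reads, counted them over the exons of Gencode M16 genes with HTSeq-count, and deposited raw counts per gene for every library. The strand setting of the counting was not stated. No deposited column of per-sample values was left unused.

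From these counts, a gene entered the fit of an organ when at least 3 samples had a CPM worth 10 counts at the median depth, and 21601 genes were kept in at least 1 organ. Tests were run with edgeR 4.0.16 (limma 3.58.1, R 4.3.3), with TMM factors and the quasi-likelihood F test. Fasting was fitted within each organ on its 6 times. Organs were compared in an additive fit of organ and time on all retained libraries, in place of the planned fit of 54 groups, which gave no usable p for genes with a group at 0. The interaction used organ and 3 stages. DESeq2 1.42.0 was an alternative, and others changed factors, filter, libraries, lane and blocks. A prior count of 0.5 was used on the log scale. A floor is 3 counts, covers counting error only and ranged with depth (3045845 to 27801717 counts per library).

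Replicate numbers name different mice at different times. Correlations of deviations of same-numbered samples within an organ averaged -0.07 to 0.16 and did not all exceed 0.1 in any organ, so that numbers do not pair times. The same animal gave all organs of a time, and the mean correlation between organs of an animal was 0.014.

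The members, gene lists and tests were chosen with earlier results of these data known. All 10 members are named. Of pathway genes, those named are called in a comparison in which a member passes, at most 5 for each list, and the 3 genes most like each member are given. Promoters are those of RefSeq for GRCm38.p6, and gene coordinates and exon lengths those of Gencode M21. The code was tested on simulated data. A gene counted as recovered at an adjusted p under 0.05 in the right direction, without the fold threshold. In the late against early comparison in STM 48 of 100 genes changed 2-fold and 100 of 100 changed 4-fold were recovered. There 6 unchanged genes passed as well. For pgWAT against psWAT 100 of 100 of each were recovered, and 8 unchanged genes passed.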

Additional observations from a re-analysis of the deposited data

Results flagged for a closer look

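Tlr2 was noted because its response to fasting differed between organs in the test of organ and stage (adjusted p = 0.0311). Late minus early log2FC was -1.46 in LIV, 0.26 in BST and 0.37 in iBAT. The early LIV mean of 5.40 CPM (median 2.14) included LIV 2 h replicate 2 at 23.4 CPM, and the late mean was 1.39 CPM (median 1.17). Without LIV 2 h replicate 2 the adjusted p was 0.521, with the assumed animal as a block it was 0.0968, and with all libraries it was 0.0525. In BRN Tlr2 was at 1.04 CPM in early and 0.412 CPM in late mice, with 2 of 5 late libraries at 0 counts, and no fold is given there.

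Tlr4 was noted for the same reason (adjusted p = 0.0367). Its late changes were -1.13 in STM, -0.76 in LIV, -0.50 in OB, -0.17 in psWAT, -0.04 in BST, 0.00 in CBL, 0.14 in iBAT, 0.16 in pgWAT and 0.53 in BRN. With the assumed animal as a block the adjusted p was 0.0205, and with all libraries, the excluded ones among them, it was 0.0936. Early and late libraries lay on different lanes in STM, LIV, OB and pgWAT, and lane was not part of that test.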

How the results depend on the processing

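Against 0 h, where 5 comparisons of a member were called, 8 were called with no filter on low counts (Tlr2 and Tlr4 in LIV and Tlr13 in iBAT among those gained), 3 without iBAT 22 h replicate 2, and 1 to 6 when a replicate number or a single library was left out. The joint test passed for 3 pairs of a member and an organ, for 9 by DESeq2 and for 5 with no filter, and leaving out replicate 1 or 2 gave 0 to 1. Gained by DESeq2 were Tlr4 in OB, STM and LIV, Tlr7 in BST (adjusted p = 0.0195), and Tlr5 (0.0183) and Tlr13 (0.0491) in psWAT. Gained with no filter were Tlr4 in OB and LIV and Tlr7 in BST (0.00112). By DESeq2 Tlr9 in pgWAT passed at 22 h against 0 h (log2FC -2.78, adjusted p = 0.0415). In place of 2 late calls, pooling the early and the late groups gave 1, and leaving out a replicate number gave 0, 1 and 3 (without numbers 1, 2 and 3) and a single library 1 to 3. With the replicate number as a block, 1 late call and 1 joint call remained in number, although the numbers do not pair the mice. Tlr7 in iBAT reversed, to -0.43 at 22 h and -0.026 in the late comparison without replicate 2, and to -0.56 and -0.042 without 22 h replicate 2, and over all libraries left out it ranged from -0.56 to 3.36 and from -0.042 to 1.92. Tlr4 in STM was at -1.15 (adjusted p = 0.145), -1.68 (0.00914) and -0.65 (0.184) in the late comparison without replicate number 1, 2 and 3.

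Between organs, 954 values of single members under an alternative kept their direction and side of the threshold, 23 passed newly and 13 no longer did, and none reversed. In LIV 5 members were called, and these and Tlr1, Tlr2, Tlr6 and Tlr13 (9 in all) with library totals alone. Of 2 calls in BRN there was 1 with DESeq2, RLE factors, no filter or the animal number as a replicate block, and 0 without replicate 2. The call of Tlr4 between the white depots was lost with library totals alone (log2FC 0.83) and without replicate 3 (0.98). Of the 2 interactions 0 passed with all libraries and 1 without LIV 2 h replicate 2, and with the assumed animal as a block Tlr2 did not pass (adjusted p = 0.0968) and Tlr3 did (0.0361). Depth limits Tlr8 and Tlr9 outside white fat, where they lie near the floor. The cause of each change was not tested.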
